A study of Mus musculus with 20 samples.

Results

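The S100 and annexin genes of the mouse kidney were described after puberulic acid and in controls. Members were taken by name, as every row of the gene table whose symbol begins with S100a, S100b, S100g or Anxa. This gave 30 of 55822 rows, made up of 17 S100 rows and 13 annexin rows. They include the pseudogene S100a11-ps and the antisense transcript Anxa11os. All samples used here are kidneys of male C57BL/6J mice of 8 weeks, an inbred laboratory strain, dosed once daily for 6 days, with organs taken on day 7. The 5 control samples come from mice given PBS, a salt buffer, and the 5 other samples from mice given puberulic acid, a tropolone made by some Penicillium moulds, at 1 mg per day. The study also gave 2 lots of the supplement Choleste-Help at 1000 mg per day, one normal and one toxic, and these are not analysed here. Dosing is described as oral in the design text and as either gavage or intraperitoneal injection in the protocol, and the route used for a given mouse is not stated. A day without dosing came before harvest. The labels do not say whether each kidney sample is from 1 mouse, so p-values measure the spread between these samples.

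S100 proteins are small calcium sensors. Most work as dimers that open on binding calcium and grip a target protein, and some are also released as danger signals that act on receptors such as RAGE and TLR4. Annexins bind negatively charged membrane lipids when calcium rises, and they join membranes to each other, to the actin skeleton and to S100 partners. Annexin A2 with S100A10, and annexin A1 with S100A11, are the best known of these complexes, and both take part in trafficking and in the resealing of torn membranes. S100G, also called calbindin-D9k, buffers and carries calcium through absorbing epithelia and is regulated by vitamin D.

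Total estimated counts ran from 18409877 to 24705587 per library. Levels are given in CPM, which are counts relative to the size of the library after TMM (trimmed mean of M-values) correction. A floor of 3 counts equals 0.158 to 0.195 CPM in controls and 0.0964 to 0.128 CPM with puberulic acid, and it covers counting error only. A gene was called when its Benjamini-Hochberg adjusted p-value in edgeR's quasi-likelihood test, over all 16266 genes tested, was under 0.05. Fold changes compare puberulic acid with control, on the log2 scale where stated, with standard errors (SE). Kidney markers were present: summed levels of 7 proximal tubule markers were 7000.1 to 10191 CPM without and 501 to 1244 CPM after treatment, and all 7 were called lower. Over all tested genes 34.2% were called higher and 31.1% lower. Markers of injured tubule, macrophages and fibroblasts moved with the groups. Counts of listed genes here and below cover genes that were over the low-count filter level (0.486 CPM before TMM correction) in all 5 controls. Shares of all tested genes were not limited in this way. All 3 such injured tubule markers were called higher (for the whole list of 5, 10.2 to 22.8 CPM summed without and 1593 to 2832 CPM after treatment). Of 8 such macrophage markers 6 were called higher (for the whole list of 9, 90.9 to 217 against 201 to 707 CPM summed), and of 6 fibroblast markers 5 were (125 to 199 against 483 to 1696 CPM summed). No marker of these 3 lists was at 0 in every library of a group. Their part in the changes below was not tested.

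Of the 30 members, 3 (S100a11-ps, Anxa10 and Anxa11os) had 0 counts in all 10 libraries, 23 passed the filter on low counts and 7 in all were not tested. Among the 23, S100a3, S100a7a, S100a9, S100a14 and Anxa8 reached the filter level in at most 4 controls. The filter asked for that level in 5 samples, so the control samples alone would not have admitted these 5 genes, and they are left out of the counts that follow. The other 18 reached the level in all 5 controls, a limit that was not set on the shares of all tested genes. Of these, 8 were S100 genes, of which 6 were called higher and 2 lower, against 34.2% of all tested genes called higher and 31.1% called lower. The other 10 were annexins, of which 6 were called higher and 1 lower. Together 15 of the 18 were called, against 65.3% of all tested genes. A rise of at least 4-fold was called for 2 S100 genes and 3 annexins, against 9.22% of all tested genes, and a fall of that size for 0 members, against 3.78%. The median log2 fold change was 1.24 for the 8 S100 genes and 0.72 for the 10 annexins, beside 0.05 for all genes tested. Each of the 12 called higher had all 5 puberulic acid samples above all 5 controls, a separation upwards that 26.1% of all tested genes showed. Of the 3 called lower, S100a1 and S100g had all treated samples below all controls, which 24% of all tested genes showed, and Anxa13 had not. With the 5 genes included, 12 S100 genes and 11 annexins were tested. Calls on these 5 are not counted, because treated samples were needed to admit them.

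**Figure D1:**
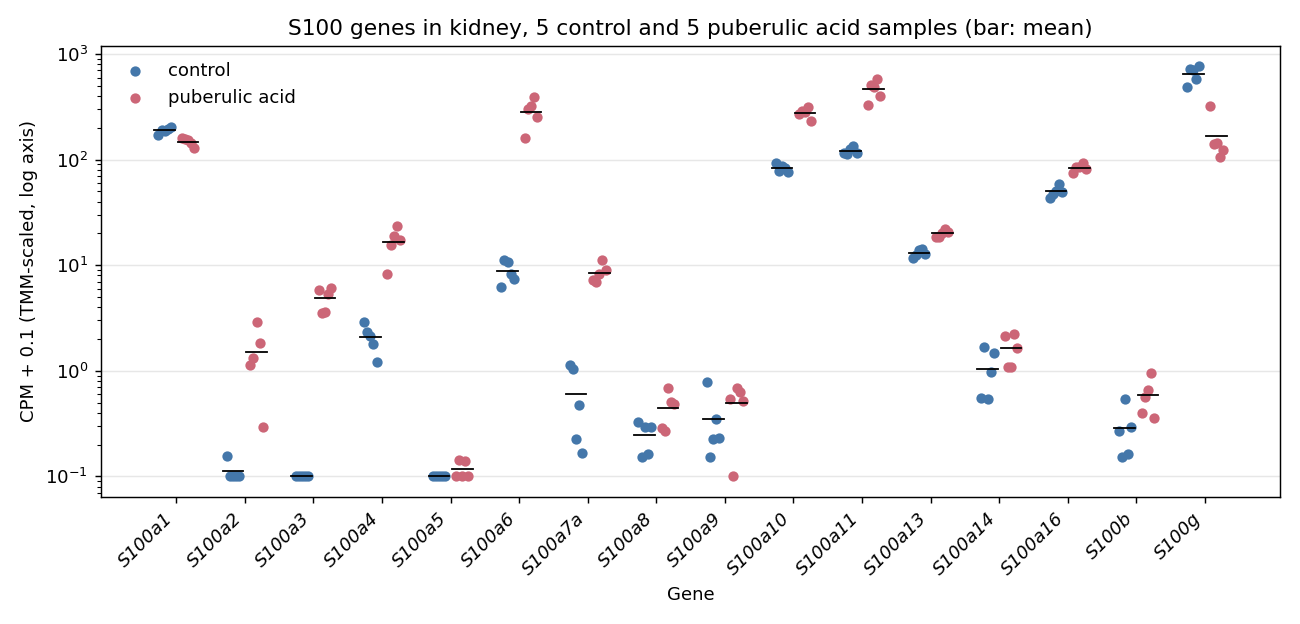
Levels of the 16 S100 genes with counts, as CPM + 0.1 on a log axis, for 5 control samples (blue) and 5 puberulic acid samples (red), with bars at the group means. S100a6, S100a4, S100a10 and S100a11 lie higher in every puberulic acid sample, S100g lies lower, and S100a8 and S100a9 stay under 1 CPM in all 10.

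The annexin-binding genes S100a11, S100a10 and S100a6 were called higher. S100a6, which encodes calcyclin, a partner of several annexins, rose 33.0-fold, the largest change among S100 genes with counts in every control. Its levels in control replicates 1 to 5 were 6.05, 11.1, 10.6, 8.10 and 7.34 CPM. After puberulic acid they were 160.3, 299.8, 322, 393 and 252 CPM, in the same order. The lowest treated sample, replicate 1, was still far above the highest control. S100a6 (ENSMUSG00000001025) had a log2 fold change of 5.05 ± 0.27 (SE, edgeR adjusted p = 3.38e-08).

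S100a11 encodes the annexin A1 partner that gathers at damaged membranes. Its level was 115, 114, 126, 135 and 116 CPM in control replicates 1 to 5 and 328, 513, 489, 585 and 403 CPM in puberulic acid replicates 1 to 5. No treated sample overlapped the controls, and replicate 1 was again the lowest of its group and replicate 4 the highest. The log2 fold change of S100a11 was 1.93 ± 0.15 (SE, adjusted p = 4.26e-07), or 3.82-fold. S100a10 encodes p11, which has lost calcium binding and stays in a fixed complex with annexin A2. It went from 93.6, 77.7, 86.4, 82.4 and 76.4 CPM in the controls to 269.8, 292, 280.5, 316 and 233 CPM in the treated samples. The spread of S100a10 among treated samples was narrow beside the difference, and its log2 fold change was 1.74 ± 0.10 (SE, adjusted p = 5.84e-08).

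S100a4 encodes metastasin, also known as fibroblast-specific protein, which binds non-muscle myosin. Control libraries had 2.80, 2.21, 2.04, 1.68 and 1.10 CPM of S100a4 and puberulic acid libraries 8.09, 15.5, 18.6, 23.6 and 17.2 CPM. All treated samples were higher, with replicate 1 again lowest, and the log2 fold change was 3.07 ± 0.30 (SE, adjusted p = 3.57e-06). S100a4 transcripts are known from fibroblasts and macrophages, whose marker lists moved with the groups as given above. Myh9, the gene of the non-muscle myosin heavy chain to which S100A4 binds, was called higher as well, with a log2 fold change of 1.40.

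Letters of the promoters were read for the members that changed most in level, to show what lies before their starts. Each run below is the 250 bases before the transcription start, 5′ to 3′ on the strand of the gene, from RefSeq windows of build GRCm38.p6. Capitals mark matches to the AP-1 pattern TGANTCA and to the TATA pattern TATAAA on either strand. The S100a6 window is chr3:90612644-90612893 (plus strand), S100a11 is chr3:93520246-93520495 (plus strand), Anxa2 is chr9:69453433-69453682 (plus strand) and S100g is chrX:162964600-162964849 (minus strand).
S100a6: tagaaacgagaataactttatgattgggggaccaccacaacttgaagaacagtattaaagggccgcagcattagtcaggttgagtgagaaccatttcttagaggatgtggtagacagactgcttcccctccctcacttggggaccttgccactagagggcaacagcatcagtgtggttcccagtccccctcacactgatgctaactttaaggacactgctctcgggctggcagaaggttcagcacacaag
S100a11: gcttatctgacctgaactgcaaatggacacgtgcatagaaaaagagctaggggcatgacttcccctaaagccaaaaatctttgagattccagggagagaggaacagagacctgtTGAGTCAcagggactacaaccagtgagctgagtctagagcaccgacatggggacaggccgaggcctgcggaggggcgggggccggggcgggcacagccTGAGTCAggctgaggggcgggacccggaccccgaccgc
Anxa2: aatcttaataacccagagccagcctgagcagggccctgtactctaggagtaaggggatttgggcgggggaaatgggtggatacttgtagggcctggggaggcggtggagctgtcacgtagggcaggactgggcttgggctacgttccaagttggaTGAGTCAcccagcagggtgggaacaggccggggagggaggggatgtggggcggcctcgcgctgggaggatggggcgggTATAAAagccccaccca
S100g: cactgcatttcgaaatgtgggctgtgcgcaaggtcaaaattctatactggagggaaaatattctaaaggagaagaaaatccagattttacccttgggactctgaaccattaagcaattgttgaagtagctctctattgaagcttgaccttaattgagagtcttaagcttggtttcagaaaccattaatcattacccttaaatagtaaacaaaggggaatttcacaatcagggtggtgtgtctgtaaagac
S100a11 holds TGAGTCA at 136 to 130 and again at 38 to 32 bases before its start. Anxa2 holds TGAGTCA at 95 to 89 bases and TATAAA at 17 to 12 bases before its start. The S100a6 and S100g windows hold neither pattern. Windows were found for 22 of the 30 members, 29 windows in all. TGANTCA was present for 4 members (Anxa2, S100a11, S100a16 and Anxa10) and in 6.75% of all 32851 windows. TATAAA was present for 6 members (Anxa1, Anxa2, Anxa10, S100a3, S100a4 and S100a8) and in 12.4% of all windows.

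In all, 9 patterns were searched on both strands in the same 250 bases. CATTCC, the core bound by TEAD factors, was present for 3 members and in 12.6% of all windows. TGANNNNGC, the core of the antioxidant element, was present for 9 members and in 35.2% of all windows, and it can overlap TGANTCA. The NF-kB pattern was present for 1 member, Anxa4, and in 3.9% of windows. No member window held TGACGTCA (1.55% of all windows), the CArG box (1.47%), CAAAGTCCA of HNF4 (0.384%) or the HNF1 palindrome (0.00913%). Genes to show and patterns to search were chosen after the members' values had been seen. These matches are descriptions of letters and no binding was measured.

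Among the epithelial S100 genes, 2 that were at or near 0 in controls reached measurable levels. S100a3, known from the hair cuticle, had 0 counts in all 5 control libraries and 155, 80, 82, 128 and 186 counts in puberulic acid replicates 1 to 5. Its mean of 4.77 ± 1.24 CPM (SD, n = 5) was at least 26.4-fold higher than the floor of 3 counts per control library. It entered the test through the treated samples alone, so its p-value is not given. S100a2, expressed in basal layers of stratified epithelia, had 1, 0, 0, 0 and 0 counts in the controls and 28, 29, 66, 43 and 6 counts in the treated samples. Treated replicate 5 was low, only 4 samples reached the filter level, and S100a2 was not among the genes tested. The ratio of its summed counts, scaled by library size, was 111, with an exact 95% interval of 19.6 to 4407 that covers counting error only. A fit with no filter gave S100a2 a log2 fold change of 6.29. Its counts came almost only from the treated samples, so that value is no measure of size and its p-value is not given. S100a3 and S100a2 overlap in the RefSeq annotation, and how reads shared by both were divided is not stated. Of 6 markers of urothelium and the collecting system, Krt5 was at 0.125 to 0.457 CPM without and 15.7 to 24.8 CPM after treatment, and it was under the filter level in all controls. The other 5 are uroplakin genes, of which 2 were over that level in all controls and neither was called. Their sum was 3.25 to 11.02 CPM in control samples and, in treated replicates 1 to 5, 8.20, 2.68, 36.3, 1.30 and 4.15 CPM, so treated replicates 2 and 4 lay below all controls and replicate 3 above them. Their part in the levels of S100a3, S100a2, S100a7a and Anxa8 was not tested.

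S100a7a, the mouse relative of the skin protein psoriasin, had 18, 18, 2, 6 and 1 counts in control replicates 1 to 5 and 192, 160, 191, 271 and 278 counts in the puberulic acid replicates. Its groups did not overlap, and its fitted log2 fold change was 3.99 ± 0.48 (SE). It reached the filter level in 2 controls and all 5 treated samples, so its p-value is not given. S100a14, another epithelial member, was at 0.445 to 1.58 CPM in controls and 0.974 to 2.12 CPM in treated samples, ranges that overlap (fitted log2 fold change 0.69 ± 0.40, SE). S100a5 was at 0 in all controls and had 1 count in each of 2 treated samples.

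Other S100 genes of moderate level changed less. S100a16, a widely expressed member, was at 43.6 to 58.8 CPM in the controls against 74.8 to 92.5 CPM in treated samples, a log2 fold change of 0.75 ± 0.09 (SE, edgeR adjusted p = 2.18e-05). S100a13, which assists the release of the growth factor FGF1, was at 11.7 to 14.0 and 18.4 to 21.8 CPM, with a log2 fold change of 0.62 ± 0.09 (SE, edgeR adjusted p = 1.10e-04). S100a1, a regulator of calcium cycling in muscle, overlaps S100a13 in the RefSeq gene table. The level of S100a1 was 171, 190.0, 188, 195 and 205 CPM in control replicates 1 to 5 and 159, 157, 154, 143 and 129 CPM in puberulic acid replicates 1 to 5. All treated samples lay below all controls, and S100a1 was called lower (log2 fold change -0.36 ± 0.08, SE, edgeR adjusted p = 0.00264), but with total-count scaling its log2 fold change was 0.15 (adjusted p = 0.105). That scaling moved the median of all genes tested from 0.05 to 0.56, so the S100a1 value lay below that of the median gene in both. Libraries came from a directional kit per the labels, and whether counting used the strand is not stated, which bears on such overlapping pairs.

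S100a8 and S100a9, whose proteins form calprotectin, the main cytosolic protein of neutrophils, stayed near the floor. Control counts of S100a8 were 4, 1, 3, 1 and 3, and counts with puberulic acid were 5, 4, 14, 10 and 12. S100a9 had 12, 1, 2, 4 and 2 counts in controls and 12, 0, 14, 13 and 13 counts with puberulic acid, with overlapping ranges and a fitted log2 fold change of 0.66 ± 0.73 (SE). S100a8 failed the filter and had a log2 fold change of 1.23 in a fit without it (adjusted p = 0.108). Its summed counts, scaled by library size, were 2.42 times as high with puberulic acid, with an exact 95% interval of 1.26 to 5.02 for counting error only. None of the 11 neutrophil markers was over the filter level in all controls, so no count of calls is given, and they summed to 1.21 to 3.86 CPM in the controls against 4.86 to 10.8 CPM in treated samples. The neutrophil markers Ly6g, Elane and Camp had 0 counts in all 5 puberulic acid libraries, and Ly6g and Elane also in all controls. Csf3r, Cxcr2 and Mmp9 were higher in every treated sample than in any control, with fitted log2 fold changes of 1.66, 1.87 and 2.19. So was Mmp8, not tested, at mean levels of 0.024 CPM in controls and 0.419 CPM in treated samples. Ltf, Mpo, Ngp and Retnlg overlapped between the groups. S100b, the glial member, had 3, 1, 7, 1 and 3 counts in controls and 8, 11, 13, 21 and 8 with puberulic acid, and its log2 fold change in the fit without a filter was 1.37 (adjusted p = 0.0759).

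S100g, the S100 gene with the highest level in controls, fell most among S100 genes. Its level was 485, 720.2, 703, 577 and 764 CPM in control replicates 1 to 5 and 323, 141, 142, 106 and 123 CPM in puberulic acid replicates 1 to 5. Treated samples 2 to 5 lay close together, while replicate 1 lay between them and the lowest control. The log2 fold change of S100g (ENSMUSG00000040808) was -1.96 ± 0.28 (SE, adjusted p = 7.30e-05), or 3.89-fold lower, and it was -2.37 without puberulic acid replicate 1. In whole tissue, fewer cells of a type and less RNA per cell cannot be told apart.

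Genes that work beside calbindin-D9k in epithelial calcium transport were read against all tested genes. Of 9 such genes tested, 3 were called higher and 2 lower, beside 34.2% and 31.1% of all tested genes, so these counts do not set the list apart. Calb1, the larger calbindin of the distal tubule, had 360.1, 529, 385, 413 and 591 CPM without and 295, 65.6, 91.9, 54.0 and 93.3 CPM after treatment. As with S100g, replicate 1 was the highest treated sample, and the log2 fold change of Calb1 was -1.93 ± 0.42 (SE, adjusted p = 0.00146). Vdr, the vitamin D receptor gene, had a log2 fold change of -1.30 ± 0.15 (SE, edgeR adjusted p = 1.04e-05). Called higher were the calcium channel genes Trpv6 and Trpv5 and the calcium pump gene Atp2b1, with log2 fold changes of 1.73, 0.41 and 0.63. Of 6 markers of loop, distal tubule and collecting duct, a list that also holds Calb1, 5 were called lower, beside 31.1% of all tested genes. With total-count scaling Slc12a1 and Slc12a3 were no longer called (edgeR adjusted p = 0.180 and 0.380). Umod, not called before, was then called higher at 0.57 (edgeR adjusted p = 0.0119). The summed level of the 6 markers was 4184 to 6157 CPM in the controls, 6492 CPM in treated replicate 1 and 3268 to 4167 CPM in treated replicates 2 to 5. The sum of replicate 1 thus lay above all controls and the others below them. Umod was the largest part of the sum, with means of 3335 CPM in controls and 3476 CPM in treated samples. Calb1, Aqp2 and Atp6v1b1 lay below all controls in every treated sample, replicate 1 included. The part of that marker list in the S100g result was not tested.

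The make-up of the S100 transcripts differed between the groups. CPM were divided by the length of the longest principal transcript of each gene and expressed as shares of the family sum, which do not depend on library scaling. S100g held 59.5, 68.2, 66.6, 61.2 and 68.9% of the length-corrected S100 sum in control replicates 1 to 5. In puberulic acid replicates 1 to 5 it held 29.4, 11.7, 11.9, 7.99 and 12.3%. S100a11 held the largest share in treated replicates 2 to 5, while in replicate 1 S100g held slightly more than S100a11. S100a11 held 11.6% ± 1.71 of the control sum and 37.2% ± 5.29 of the sum after treatment (SD, n = 5 each). S100a6 went from 0.567% ± 0.109 to 15.9% ± 3.76 and S100a10 from 5.98% ± 1.26 to 16.7% ± 0.352, while S100a1 made up 13.6% ± 1.09 and 9.08% ± 0.924 (SD, n = 5 each). The length-corrected sum of the family itself was 1698 to 2309 CPM per kb in controls and 2075 to 2763 CPM per kb with puberulic acid, ranges that overlap.

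**Figure D2:**
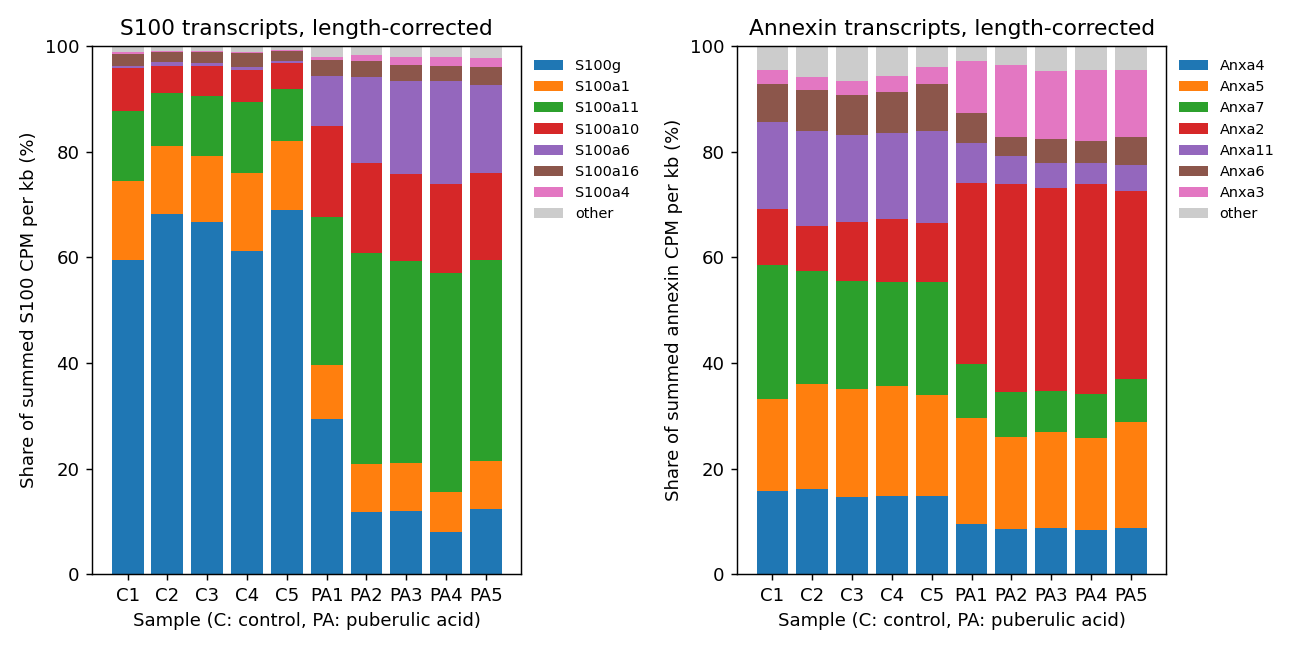
Shares of single genes in the length-corrected sum of S100 (left) and annexin (right) transcripts, in percent, for each control (C) and puberulic acid (PA) sample. S100g holds 59.5% to 68.9% of the S100 sum of controls and 7.99% to 29.4% of that of treated samples, and Anxa2 holds 8.52% to 11.9% and 34.1% to 39.7% of the annexin sum.

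By length-corrected level the order of the main S100 genes in controls was S100g at 1354 ± 240.2, S100a1 at 280.3 ± 18.3, S100a11 at 237 ± 18.1 and S100a10 at 122 ± 10.2 CPM per kb (SD, n = 5). S100a1 and S100a11 were apart by slightly more than the sum of their SDs, and the other neighbours by more. With puberulic acid the order was S100a11 at 907 ± 196, S100a10 at 406 ± 44.7, S100a6 at 391 ± 118, S100g at 348 ± 184 and S100a1 at 219 ± 18.3 CPM per kb (SD, n = 5). S100a10, S100a6 and S100g did not differ in that order beyond their spread, and neither did S100g and S100a1.

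The annexins A3, A2 and A1 rose at least 4-fold. Anxa3, whose protein inhibits phospholipase A2 activity in vitro, had 10.8, 11.02, 12.4, 13.7 and 13.4 CPM in control replicates 1 to 5 and 98.4, 177, 167, 195 and 154 CPM in puberulic acid replicates 1 to 5. Its log2 fold change was 3.69 ± 0.18 (SE, adjusted p = 1.76e-08), or 12.9-fold. Anxa2, the partner of S100a10 and a docking site for plasminogen and its activator, had 39.3, 34.3, 45.4, 50.1 and 44.2 CPM in control kidneys and 306, 471, 455, 526 and 389 CPM after puberulic acid. Groups were far apart for both genes, and in both replicate 1 was the lowest and replicate 4 the highest treated sample. Anxa2 (ENSMUSG00000032231) had a log2 fold change of 3.33 ± 0.16 (SE, edgeR adjusted p = 1.79e-08), or 10.1-fold.

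Anxa1 encodes the glucocorticoid-regulated annexin that binds formyl peptide receptors on leukocytes. Its levels were 10.1, 9.65, 10.9, 10.2 and 8.90 CPM in the controls and 17.9, 35.3, 48.2, 56.3 and 45.7 CPM in the treated samples. Replicate 1 stood below the other treated samples, though above each control. Anxa1 had a log2 fold change of 2.03 ± 0.25 (SE, edgeR adjusted p = 2.01e-05). Anxa8, a low-level annexin of epithelia, had 1.14, 1.53, 0.955, 0.623 and 0.260 CPM in the controls against 3.56, 8.77, 11.4, 8.92 and 4.95 CPM in treated samples, with a fitted log2 fold change of 3.03 ± 0.43 (SE). It reached the filter level in 4 controls and all 5 treated samples, so its p-value is not given.

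**Figure D3:**
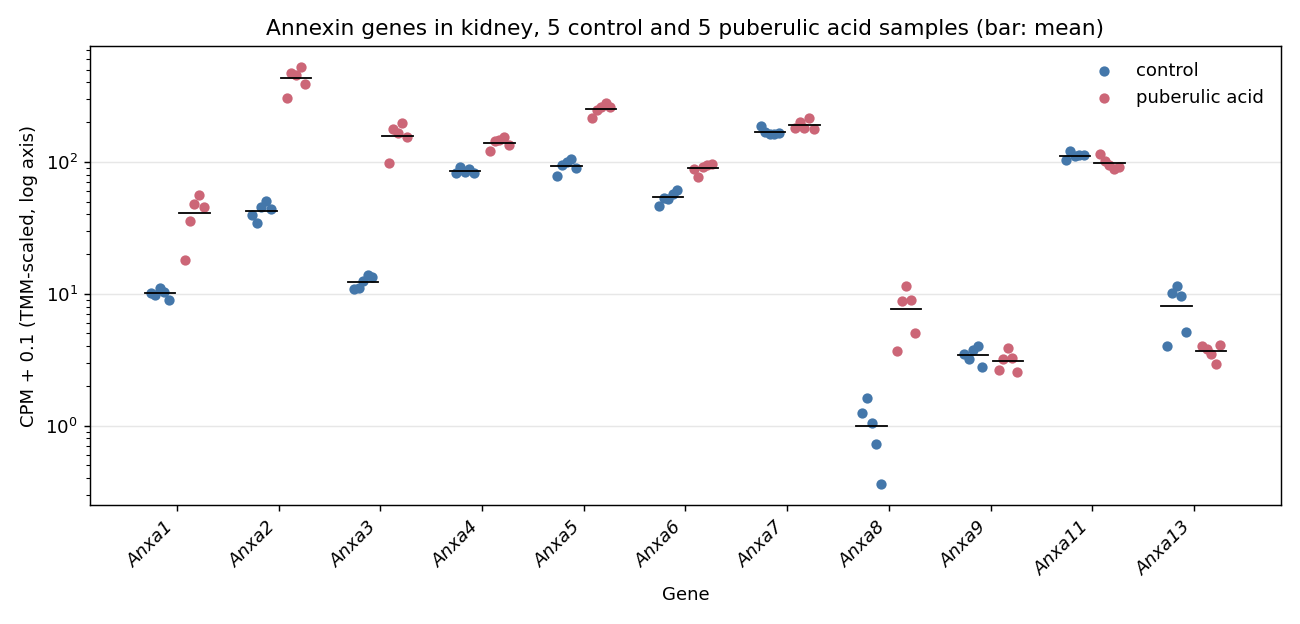
Levels of the 11 annexin genes with counts, as CPM + 0.1 on a log axis, for 5 control samples (blue) and 5 puberulic acid samples (red), with bars at the group means. Anxa2 and Anxa3 lie far apart between the groups, while Anxa7, Anxa9, Anxa11 and Anxa13 overlap.

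Annexins that were already abundant in controls rose less. Anxa5, whose protein binds exposed phosphatidylserine and is used to stain dying cells, had 78.2, 95.4, 99.2, 105 and 89.3 CPM without and 216, 248, 259, 278 and 261 CPM after treatment. All treated samples lay above all controls, and the log2 fold change was 1.44 ± 0.10 (SE, adjusted p = 2.47e-07). Anxa4, an annexin of secretory epithelia, was at 81.8 to 91.0 CPM in control kidneys and 121 to 155 CPM after puberulic acid (log2 fold change 0.72 ± 0.08, SE, edgeR adjusted p = 1.11e-05). Anxa6, which has a duplicated annexin core and links membranes to cholesterol transport, was at 46.3 to 60.7 and 76.8 to 96.5 CPM (log2 fold change 0.73 ± 0.09, SE, edgeR adjusted p = 2.50e-05).

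Anxa7, Anxa9 and Anxa11 were not called. Anxa7, also called synexin, was at 169 ± 10.2 CPM in the controls against 192 ± 16.6 CPM in treated samples (SD, n = 5 per group), a log2 fold change of 0.18 ± 0.08 (SE, edgeR adjusted p = 0.0721). It was called with total-count scaling (0.69, adjusted p = 7.29e-06), with upper-quartile scaling (0.28, adjusted p = 0.0112) and without control replicate 1 (0.21, adjusted p = 0.0434). Anxa11, a tether of RNA granules to lysosomes, was at 112 ± 6.17 and 98.1 ± 10.2 CPM (SD, n = 5 per group), a log2 fold change of -0.19 ± 0.09 (SE, edgeR adjusted p = 0.0731). Its direction depended on scaling, since total-count scaling gave 0.32 (adjusted p = 0.00488). Anxa11 was called lower without puberulic acid replicate 1 (-0.27, adjusted p = 0.00603), without control replicate 1 (-0.23, adjusted p = 0.0414) and with DESeq2 (-0.20, adjusted p = 0.0476). Anxa9 was at 2.66 to 3.93 CPM without and 2.44 to 3.77 CPM after treatment (adjusted p = 0.480), and the sign of its log2 fold change went from -0.16 to 0.35 with total-count scaling.

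In length-corrected shares Anxa2 headed the annexins after treatment. Anxa2 held 10.5, 8.52, 11.2, 11.9 and 11.3% of the annexin sum in control replicates 1 to 5 and 34.1, 39.4, 38.3, 39.7 and 35.5% in the treated replicates. Anxa3 went from 2.79% ± 0.247 to 12.5% ± 1.45 and Anxa7 from 21.6% ± 2.20 to 8.62% ± 0.961, while Anxa5 held 19.5% ± 1.33 and 18.6% ± 1.30 (SD, n = 5 each). The annexin sum was 259 to 290 CPM per kb for control kidneys and 621 to 916 CPM per kb after treatment, so a smaller share need not mean a lower level. In controls Anxa7 at 59.3 ± 3.58 and Anxa5 at 53.9 ± 5.85 CPM per kb led, followed by Anxa11 at 46.6 ± 2.58, Anxa4 at 42.0 ± 1.91 and Anxa2 at 29.5 ± 4.19 CPM per kb (SD, n = 5). Anxa7 and Anxa5 did not differ beyond their spread, nor did Anxa5 and Anxa11. After puberulic acid the order was Anxa2 at 297 ± 58.3, Anxa5 at 146 ± 13.5, Anxa3 at 99.3 ± 23.1, Anxa4 at 69.0 ± 6.35 and Anxa7 at 67.3 ± 5.84 CPM per kb (SD, n = 5), with the last 2 within their spread. The ranges of Anxa3 and Anxa4 overlapped.

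Anxa13, an annexin of polarised epithelia that works in transport to the apical membrane, was the single annexin called lower. It had 3.94, 9.97, 11.3, 9.53 and 5.00 CPM in control replicates 1 to 5 and 3.93, 3.71, 3.39, 2.81 and 4.02 CPM in puberulic acid replicates 1 to 5. The groups overlapped, as control replicates 1 and 5 lay near the treated samples. The log2 fold change of Anxa13 was -1.15 ± 0.28 (SE, adjusted p = 0.00327), and with total-count scaling it was -0.64 and not called (adjusted p = 0.0609).

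**Figure D4:**
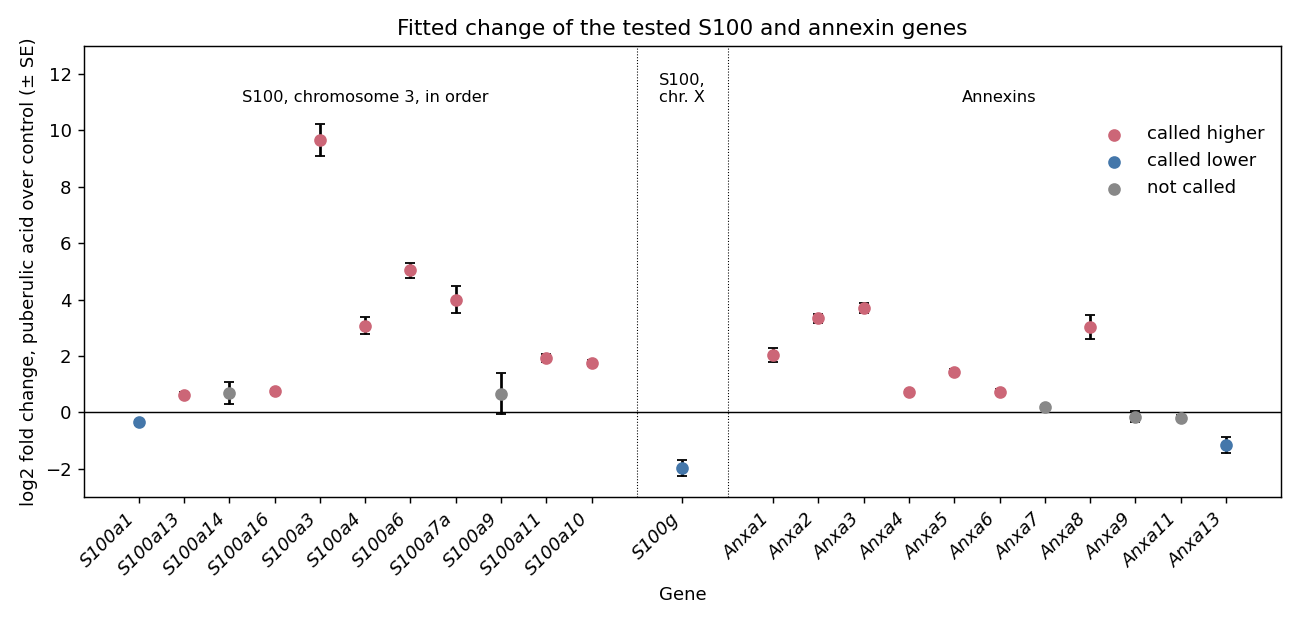
Fitted log2 fold changes of puberulic acid over control with SE for the 23 members tested, with S100 genes of chromosome 3 in the order in which they neighbour each other, then S100g of chromosome X, then the annexins. Red points were called higher, blue points lower and grey points were not called. S100a3, S100a7a and Anxa8 are red, but treated samples were needed to admit them, so these calls are not counted in the text. S100a3 has no control counts, so its fitted value of 9.67 is no measure of size.

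RefSeq annotation places 14 of the S100 members on chromosome 3. Within that group S100a4 and S100a6, with S100a5 between them, were called higher. S100a3 and S100a2 before them and S100a7a after them had the low control counts given above. The next pair, S100a8 and S100a9, stayed near the floor, and beyond it S100a11 and S100a10 were called higher. At the other end S100a1 was called lower, S100a13 and S100a16 were called higher and S100a14, between them, was not called. No test of position was made.

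Ratios within the 2 complexes were computed after the members' levels had been seen. They were taken per length and within each library, so scaling does not enter. The ratio of Anxa2 to S100a10 transcripts was 0.199, 0.209, 0.249, 0.288 and 0.274 in control replicates 1 to 5. With puberulic acid it was 0.538, 0.763, 0.769, 0.789 and 0.791. All treated samples lay above all controls, with replicate 1 the lowest. The mean log2 ratio differed by 1.58 (p = 0.00794 in a two-sided exact permutation test, which cannot give a smaller p with 5 samples a group, and 0.0159 after adjustment over 2 pairs). That difference largely restates the fitted changes of Anxa2 and S100a10 given above, so its p-value is no separate support for them. The ratio of Anxa1 to S100a11 was 0.0268, 0.0259, 0.0265, 0.0229 and 0.0234 in controls and 0.0167, 0.0210, 0.0301, 0.0293 and 0.0346 with puberulic acid. Treated samples lay on both sides of the controls, and the mean log2 ratio differed by 0.02 (p = 0.889 in the same exact permutation test, also after adjustment). Leaving out 1 sample at a time moved that difference between -0.09 and 0.18.

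**Figure D5:**
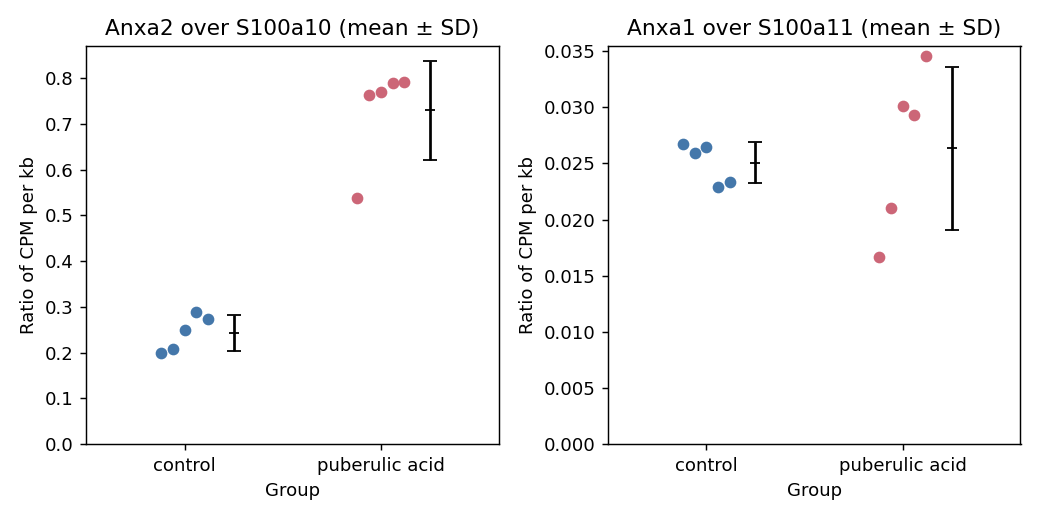
Ratios of CPM per kb within each library for Anxa2 over S100a10 (left) and Anxa1 over S100a11 (right), with 5 samples in each group and the mean ± SD beside them. The left ratio lies at 0.199 to 0.288 for the controls and 0.538 to 0.791 for treated samples, while the right ratios of treated samples lie on both sides of the controls.

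Genes that act with S100 proteins and annexins were taken from lists of 61 further genes, drawn up by known function, of which 60 were in the table, 49 were tested and 44 of these were over the filter level in all controls. Of the 44, 24 were called higher (54.5%) and 7 lower (15.9%), beside 34.2% and 31.1% of all tested genes, with a median log2 fold change of 0.39 beside 0.05. Over all 49 tested, 25 were called higher and 7 lower. With total-count scaling 34 of the 49 were called higher and 3 lower, beside 56.4% and 15.5% of all tested genes. The counts of the single lists below stand beside the same 34.2% and 31.1%. Among receptors of S100 proteins and annexin A1, 4 of 7 were called higher and 2 lower. Tlr4, a receptor for calprotectin, went from 1.48, 3.37, 1.91, 1.68 and 2.08 CPM in controls to 17.1, 15.0, 13.5, 13.9 and 16.6 CPM with puberulic acid, a log2 fold change of 2.85 ± 0.21 (SE, edgeR adjusted p = 3.99e-07). Cd68, which is also one of the macrophage markers, and Mcam had log2 fold changes of 3.83 and 2.08. Cd36, a scavenger receptor, had a log2 fold change of -1.96. Ager, the gene of RAGE, and Fpr2, a formyl peptide receptor gene, were under the filter level in some controls. Neither was called, at 0.48 and 1.14 (edgeR adjusted p = 0.314 and 0.334), and their ranges overlapped. Bsg, the gene of basigin, was called lower at -0.66, but its adjusted p was 0.183 with total-count scaling.

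Among binding partners and cargo, 8 of 15 were called higher and 1 lower, against 34.2% and 31.1% of all tested genes. Plasminogen activation, which the complex of annexin A2 and S100A10 serves at the cell surface, was represented by Plaur, Plat and Plg. Plg, the plasminogen gene itself, was not tested. It lay lower on average after treatment, at 0.955 CPM in controls and 0.247 CPM in treated samples, with overlapping ranges. Plaur, the urokinase receptor gene, had 2.40, 3.95, 4.90, 5.36 and 4.16 CPM in control kidneys and 85.8, 102, 96.2, 119 and 94.6 CPM after puberulic acid, a log2 fold change of 4.59 ± 0.19 (SE, edgeR adjusted p = 7.44e-09). Plat, the tissue plasminogen activator gene, had a log2 fold change of 3.25 ± 0.20 (SE, edgeR adjusted p = 8.77e-08). Pef1, a penta-EF-hand gene, was called lower at -0.37, which became 0.14 with total-count scaling.

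Among membrane repair genes, 7 of 10 were called higher and 2 lower, against the same 34.2% and 31.1%. Myof, the gene of myoferlin, had 20.4, 19.3, 20.7, 19.1 and 19.7 CPM in the controls against 56.1, 123, 126, 165 and 101 CPM in treated samples, with replicate 1 the lowest treated sample. Its log2 fold change was 2.52 ± 0.23 (SE, adjusted p = 1.75e-06). Trim72, a muscle repair gene at 0.116 ± 0.161 CPM without and 2.29 ± 0.991 CPM after treatment (SD, n = 5 per group), had a fitted log2 fold change of 4.20 and was under the filter level in all controls. Pdcd6ip, the gene of ALIX, had 1.29. Smpd1 and Vps4a were called lower at -0.66 and -0.56, and neither was called with total-count scaling (adjusted p = 0.397 and 0.646). Of a last list of 9 genes, of S100-type proteins and of S100pbp, whose protein binds S100P, 3 were tested. Tchh and S100pbp were called higher at 0.77 and 0.36.

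Treated samples tended to keep one order across the members called higher. Of the 12 members called higher that reached the filter level in all controls, puberulic acid replicate 1 was the lowest treated sample for 10 and replicate 4 the highest for 11. Injured tubule markers summed to 1593 CPM in replicate 1 and 1914 to 2832 CPM in replicates 2 to 5, and macrophage markers to 201 CPM in replicate 1 and 402 to 707 CPM in the others. All 12 members were still called higher without replicate 1.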

How the data were processed

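Poly(A) RNA of whole kidney was sequenced with a directional library kit, per the labels. The table deposited by the authors holds estimated counts, 1 row per gene. The submitters' processing notes name fastp 0.22.0, Salmon 1.10.3, DESeq2 and build GRCm39. Steps from Salmon to genes are not given in the sources used here. Of 20 sample columns, 10 carry names that match the control and puberulic acid samples. The other 10 do not show which supplement lot they hold and were not used.

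Counts were rounded to whole numbers, filtered with filterByExpr, scaled with TMM factors and tested with edgeR 4.0.16 (limma 3.58.1, R 4.3.3) on the 5 control and 5 puberulic acid samples, with Benjamini-Hochberg adjustment over 16266 genes. SEs were derived from the fitted log2 fold change and the square root of its F value. On simulated counts for this comparison (15177 genes tested, 200 changed), 86.5% of changed genes were recovered. Of the calls made there, 2.81% fell on unchanged genes. In the data 65.3% of tested genes were called, a far larger part than was changed in the simulation. The simulation therefore cannot show whether the scaling holds for these data. Symbols were matched for 51344 of 55822 identifiers. Transcript lengths came from GENCODE M21, with a principal transcript for 27 of 30 members and the longest for the rest. Promoter letters came from RefSeq tables of GRCm38.p6. No columns were identical. Same-numbered samples did not deviate together.

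All members were accounted for. Values in every sample were given for called members that changed at least 4-fold and for a fixed set of others. From each partner list up to 3 called genes in each direction were named. Members and lists were chosen with earlier results of these data known, and the ratios, promoters and motif patterns after the members' values had been seen. Alternatives were RLE, upper-quartile and total-count scaling, other filters (none, or 1 CPM in 5 samples), DESeq2 1.42.0, a robust fit, abundant genes left out, a replicate block, and each sample left out.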

Additional observations from a re-analysis of the deposited data

Results flagged for a closer look

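In each group of 5, a value was singled out when its gap to the nearest other sample exceeded 0.71 of the range of the group. Over 67 groups this happened in 5, beside 3.35 expected by chance, and values of related genes are not independent. Levels of the tested members alone gave 1 in 45 groups, and the ratios and shares were added to the search after they had been seen. All 5 were puberulic acid replicate 1. Its S100g level was 323 CPM, against 106 to 142 CPM in the other treated samples (gap 0.832 of the range). Its S100g share of the S100 sum was 29.4%, against 7.99% to 12.3% (gap 0.798). Its S100a11 share was the lowest, at 28.0% against 38.0% to 41.5% (gap 0.744). The Anxa3 share of the annexin sum was lowest in the same sample, at 9.93% against 12.7% to 13.5% (gap 0.79). Its ratio of Anxa2 to S100a10 was 0.538, against 0.763 to 0.791 (gap 0.892). In each case this sample was the one nearest to the controls.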

How the results depend on the processing

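Counting only members and listed genes at the filter level in all controls was chosen after seeing the data. The 12 such members called higher were called higher in every alternative run. The counts that follow are over all members and partner genes tested. Total-count scaling left 1 S100 gene, 0 annexins and 3 partner genes called lower, against 2, 1 and 7, moved the calls over all genes from 5564 higher and 5058 lower to 9179 and 2526, and it reversed S100a1 (0.15), Anxa9 (0.35) and Anxa11 (0.32). DESeq2 called 2 annexins lower. Leaving out 1 sample at a time gave 1 to 2 annexins lower, with 2 when control replicate 1 or puberulic acid replicate 1 was left out, and a difference of the Anxa1 to S100a11 log2 ratio, an alternative chosen after seeing the data, from -0.0854 to 0.177. The replicate block, whose numbers are not said to pair samples (correlations of deviations from -0.172 to 0.039), changed no call of a member. Median transcript lengths, chosen after seeing the data, gave S100g 63.1% of the S100 sum in controls and 13.6% with puberulic acid, and Anxa2 14.2% and 42.5% of the annexin sum. A fit over further groups was not run because only 2 groups could be matched. Depth limits S100a5, S100a8, S100a9 and S100b, which lay near the floor, and S100a2 in the controls.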
